A study of Mus musculus with 8 samples.

Results

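The genes examined here encode the machinery that makes messenger RNA 3′ ends, adds the poly(A) tail and later removes it. The list holds 38 gene symbols, chosen by name with earlier results of these data known, and each was found in a table of 24033 symbols. Expression was measured in lumbar L4 to L6 dorsal root ganglia, which house the cell bodies of sensory neurons together with their glia, in 8 mouse libraries. The injury group holds 4 libraries of ganglia on the side of a sciatic nerve crush, taken 24 h later, and the naive group holds 4 libraries of ganglia on the opposite, uncrushed side. Each repeat pooled ganglia of 2 mice, so the naive ganglia come from animals that also carried an injury, and no ganglia of uninjured mice were compared. The sources used here do not give strain, genotype, sex or age. The labels call the tissue dissociated and do not say whether cells were cultured.

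In the nucleus, the cleavage and polyadenylation specificity factor (CPSF) reads the poly(A) signal near the end of a pre-mRNA and cuts it, helped by cleavage stimulation factor (CstF) and cleavage factors I and II (CFIm and CFIIm). A poly(A) polymerase then extends the tail, which poly(A) binding proteins coat in the nucleus and in the cytoplasm. In the cytoplasm the PAN2-PAN3 and CCR4-NOT deadenylases shorten the tail, a step that usually precedes decay of the message. The series title names alternative polyadenylation after nerve crush, and the comparison here asks whether the transcripts of the machinery itself differ after injury.

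Library synthesis started from the poly(A) tail, and sequencing covered the 3′ end of each transcript, so each count depends on where a transcript of the gene ends. In the GENCODE M21 annotation of GRCm38, 27 of 37 members with a usable end had more than 1 annotated protein-coding end, and the counts add them together. The last 40 bases of the most distal annotated protein-coding transcript were searched on the sense strand for the signal AATAAA and, where that was missing, for ATTAAA. Of these 37 members, 23 held AATAAA, 5 held ATTAAA only and 9 held neither. Among 21809 genes with such an end the shares were 57.6%, 12.7% and 29.7%. Cnot8 had no usable end, which here meant that of a protein-coding transcript in the GENCODE basic set whose end is not marked as missing. The last 30 bases are shown for 5 of the members, Pabpc1 as the one that rose, 3 CstF subunits with values in every library and the nearly uncounted Nudt21. They are written 5′ to 3′ on the strand of the transcript, with the hexamer that CPSF reads in capitals. These are annotated ends, and where the reads of these libraries fell was not examined. Pabpc1 ends at chr15:36595661-36595690 (minus strand), Cstf3 at chr2:104665400-104665429 (plus), Cstf2 at chrX:134086790-134086819 (plus), Cstf2t at chr19:31087040-31087069 (plus) and Nudt21 at chr8:94015496-94015525 (minus), all on GRCm38.
Pabpc1: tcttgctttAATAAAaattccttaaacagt
Cstf3: aaaggAATAAAaggacctcaaaaacatgcc
Cstf2: ctgtcgtggattcAATAAAtattttaaaag
Cstf2t: acaaaatataacagttctttgcattaagac
Nudt21: gttatttcAATAAAaatatttaaaactgaa
The annotated end of Cstf2t holds neither hexamer in this window, which says only that these letters are absent from it.

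Library totals were 17116076 to 22432122 counts in injury libraries and 15422482 to 29368107 counts in naive libraries. CPM here means counts scaled to library size with TMM factors, and group values are mean ± SD over 4 libraries. Naive replicate 1 stood apart on the second principal component of log2 CPM (46.6, the other libraries between -21.1 and 11.3), so calls are also given without it. Of 11 sensory neuron markers, which fit the labelled tissue, 0 were higher and 1 was lower after injury, with summed levels of 24376 to 28769 CPM in injury libraries and 23266 to 25924 CPM in naive libraries. Satellite glial markers summed to 1479 to 1709 CPM in injury and 1342 to 1699 CPM in naive libraries, with 1 of 7 higher. Of the markers of myelinating Schwann cells (6), macrophages (7 tested of 9), neutrophils (4 found of 5) and endothelium (5), none was called, and of 5 fibroblast markers 1 was higher. Over all genes tested, 12.6% were called, 8.12% higher and 4.47% lower. In lists this short, such counts do not set a cell type apart. Neutrophil markers varied between libraries, with sums of 119 to 245 CPM in injury and 130 to 424 CPM in naive libraries. Macrophage markers summed to 12.6 to 20.1 CPM in injury and 10.2 to 22.3 CPM in naive libraries. Muscle markers summed to 2.42 CPM or less in each library. In such bulk samples, more cells of a type and more RNA per cell cannot be told apart, and the part of cell composition in the values below was not tested.

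Among the members, transcript levels differed little between injured and naive ganglia. Of the 37 that had enough counts to be tested, Pabpc1 rose and Cnot8 fell at an adjusted p under 0.05 (edgeR's quasi-likelihood test, Benjamini-Hochberg over 13639 genes). These 2 members make up 5.41% of those tested, while 12.6% of all genes tested were called, 8.12% higher and 4.47% lower. The median log2 fold change was 0.05 over the tested members and -0.004 over all genes tested, and the median absolute log2 fold change was 0.11 against 0.18. With library totals in place of TMM the medians were -0.01 over the members and -0.06 over all genes. At an unadjusted p under 0.05 there were 11 members, 8 higher and 3 lower, or 29.7% against 24.6% of all genes tested. Among the 9704 genes within the members' range of mean level, 3.84 to 210.0 CPM, 14.9% were called, and the median absolute log2 fold change was 0.16. For 31 of the 37 members the 95% interval of the fold change lay within 1.5-fold in either direction. The intervals of the other 6, Cpsf4, Clp1, Pabpc4, Pan2, Parn and Tob1, reached past that size. The share of all genes with an interval within 1.5-fold was not counted. The members' median level was 32.5 CPM, above the 18.8 CPM of all genes tested. With 37 genes, 2 called do not set the list apart from other genes.

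**Figure D1:**
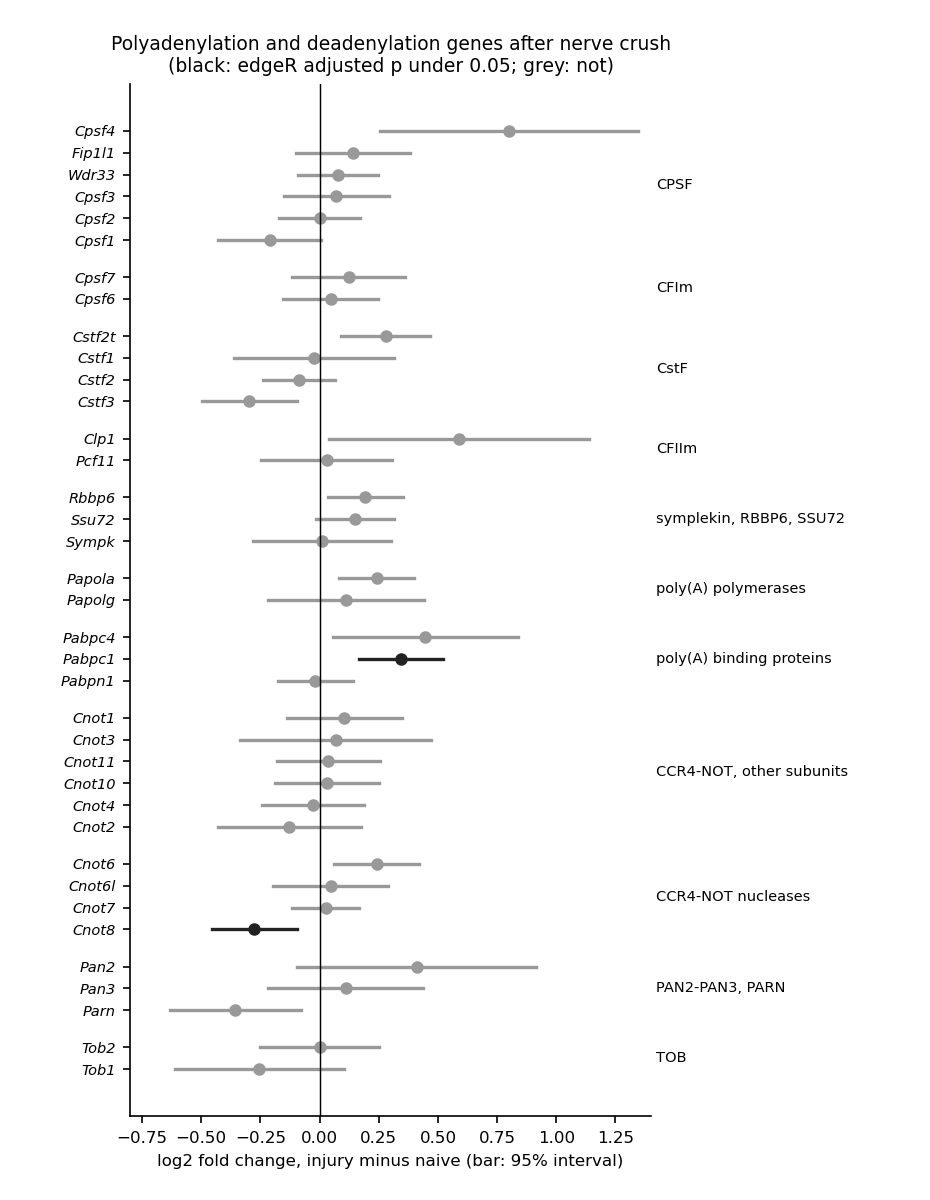
Log2 fold change (x axis, injury minus naive) of each of the 37 tested members, grouped by role, with bars for the 95% interval over 4 injury and 4 naive libraries. Most points lie near 0, and the black ones, Pabpc1 at 0.34 and Cnot8 at -0.28, are those called by edgeR.

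**Figure D2:**
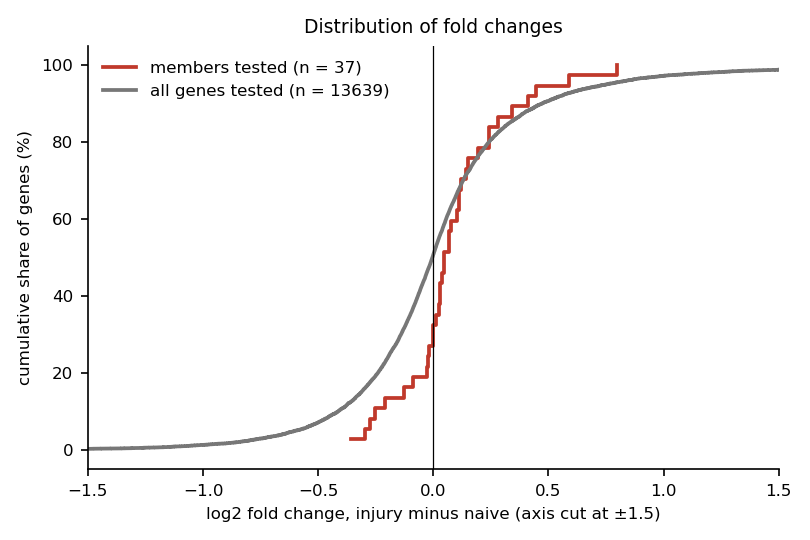
Cumulative share of genes (y axis, percent) against log2 fold change (x axis, injury minus naive) for the 37 tested members and for all 13639 genes tested. The members' curve starts at -0.36 and ends at 0.80, and its median, 0.05, lies close to the -0.004 of all genes.

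With the replicate number as a block, 4 members were called, 3 higher (Pabpc1, Papola and Cstf2t) and 1 lower (Cnot8), where 14.8% of all genes tested were called, 9.13% higher and 5.71% lower. DESeq2 called 7 of the members, 5 higher (Pabpc1, Papola, Cstf2t, Cnot6 and Cpsf4) and 2 lower (Cnot8 and Cstf3), against 14.9% of all genes, 8.98% higher and 5.94% lower. Limma-voom called Pabpc1 alone among the members, against 12.4% of all genes, 8.04% higher and 4.4% lower. With library totals in place of TMM, 2 members were lower (Cnot8 and Cstf3) and none was higher, and the split over all genes was 889 higher against 1001 lower in place of 1108 against 609. That is 13.9% of all genes called with library totals, 6.52% higher and 7.34% lower. The share of all genes called was 10.5% with no low-count filter, 17.5% among genes of mean level 5 CPM or more and 14.3% with both libraries of number 1 left out. It was 13.4%, 9.73%, 11.3% and 9.34% without injury replicates 1 to 4, and 12.3%, 10.2%, 9.83% and 10.5% without naive replicates 1 to 4. The groups did not overlap in 4 members, Cstf2t, Clp1, Cnot6 and Cstf3, 10.8% of those tested against 16.8% of all genes tested.

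Poly(A) binding proteins protect the tail and link it to translation. Pabpc1 (chromosome 15, 36595661 to 36609668 on GRCm38), the main cytoplasmic form, had 258, 239, 181 and 262 CPM in injury replicates 1 to 4, against 192, 192, 179 and 177 CPM in naive replicates 1 to 4. Injury replicates 1, 2 and 4 lay above every naive library, while injury replicate 3 lay within the naive range. It averaged 235 ± 37.5 CPM in injury and 185 ± 8.20 CPM in naive libraries (SD, n = 4 each), a log2 fold change of 0.34 ± 0.09 (SE), 1.27-fold, with an edgeR adjusted p of 0.0151. Without injury replicate 3 the log2 fold change was 0.44 (adjusted p = 4.53e-05). It lost its call when injury replicate 2 (edgeR adjusted p = 0.0525) or 4 (0.0559) was left out, without naive replicate 3 (0.0618) or 4 (0.0619), with library totals (0.0519) and with both libraries of number 1 left out (0.0725). Without naive replicate 1 alone it was kept (0.0347), and so it was with the block (0.00286).

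Pabpc4, a related cytoplasmic form, had 8.06, 11.0, 12.0 and 10.8 CPM in injury replicates 1 to 4, against 5.84, 7.01, 9.33 and 8.38 CPM in naive replicates 1 to 4. The groups overlapped, and it was not called (log2 fold change 0.45 ± 0.20, edgeR adjusted p = 0.162). Pabpn1, the nuclear form that coats the growing tail, averaged 124 ± 16.4 CPM in injury and 125 ± 6.56 CPM in naive libraries, with a 95% interval of 0.885 to 1.10 for the fold change. The summed level of these 3 genes was 375, 362, 324 and 415 CPM in injury replicates 1 to 4, against 318, 319, 316 and 319 CPM in naive replicates 1 to 4. The naive sums were nearly equal and every injury sum lay above them. Most of the difference between the group means is that of Pabpc1. In injury replicate 3, however, Pabpc1 (181 CPM) lay within its naive range, beside 132 CPM of Pabpn1 and 12.0 CPM of Pabpc4. The sums were not tested.

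The poly(A) polymerases add the tail after cleavage. Papola (chromosome 12, 105784694 to 105838944), the main nuclear polymerase, had 85.6, 103, 97.8 and 115 CPM in injury replicates 1 to 4, against 84.4, 86.7, 85.8 and 82.1 CPM in naive replicates 1 to 4. Injury replicate 1 lay among the naive libraries, and the other injury libraries lay above them. The log2 fold change was 0.24 ± 0.08, with an edgeR adjusted p of 0.0538. Papola was called with the block (0.0417), with DESeq2 (0.0447) and with no low-count filter (0.0491). It was also called without injury replicate 1 (0.00782) and with both libraries of number 1 left out (0.00877). Those are 5 of 17 alternatives, and over all 17 the adjusted p ran up to 0.251. Papolg, a second nuclear polymerase of lower level, averaged 12.9 ± 0.727 CPM in injury and 11.8 ± 2.35 CPM in naive libraries (log2 fold change 0.11 ± 0.17).

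**Figure D3:**
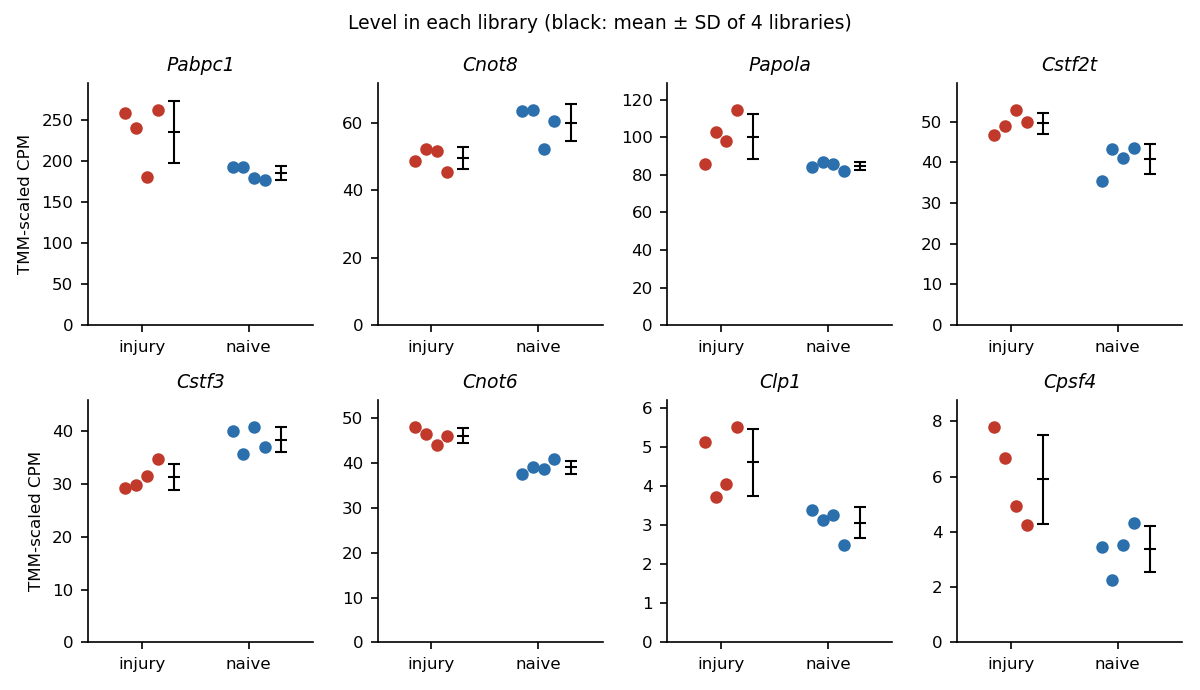
TMM-scaled CPM (y axis, from 0) of 8 members in each of the 4 injury and 4 naive libraries, with the mean ± SD in black. For Pabpc1 injury replicate 3, at 181 CPM, lies among the naive libraries, while for Cstf2t, Cstf3, Cnot6 and Clp1 the groups do not overlap.

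CPSF holds the subunits that recognise the signal and the nuclease that cuts. None of its 6 members listed here was called by edgeR, 1 of them (Cpsf4) had an unadjusted p under 0.05, and limma-voom called 0. Over all genes tested, edgeR called 12.6%, limma-voom called 12.4%, and 24.6% had an unadjusted p under 0.05. With 6 genes, such counts do not set this complex apart. Cpsf2, a nuclease homologue of the cleavage module and the member with the highest level here, averaged 72.1 ± 7.24 CPM in injury and 72.0 ± 5.46 CPM in naive libraries, with a 95% interval of 0.889 to 1.13 for the fold change. Cpsf3, the nuclease, had a log2 fold change of 0.07 ± 0.11, and Wdr33, which contacts the hexamer, one of 0.08 ± 0.09. Fip1l1, which binds U-rich sequence and the polymerase, stood at 0.14 ± 0.12 and Cpsf1, the large scaffold subunit, at -0.21 ± 0.11. Cpsf1 was called lower with both libraries of number 1 left out (edgeR adjusted p = 0.0492). That was 1 of 17 alternatives, and over all 17 the adjusted p ran up to 0.541.

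Cpsf4, the zinc finger subunit that binds the hexamer with Wdr33, had the largest fold change among the tested members. It had 7.79, 6.66, 4.93 and 4.24 CPM in injury replicates 1 to 4, against 3.45, 2.28, 3.53 and 4.31 CPM in naive replicates 1 to 4. The lowest injury library lay below the highest naive one. Its counts were 485 in the injury libraries together and 312 in the naive ones, and the log2 fold change of 0.80 ± 0.28 did not pass the threshold (edgeR adjusted p = 0.0621, and 0.0428 with DESeq2). DESeq2 was the 1 of 16 alternatives that called Cpsf4, and over all 16 the adjusted p ran up to 0.190. The 95% interval of the fold change ran from 1.19 to 2.54.

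CFIm binds UGUA elements upstream of poly(A) sites and is known to favour distal sites. Its small subunit Nudt21 had 0, 8, 5 and 7 counts in injury replicates 1 to 4, against 0, 1, 15 and 17 counts in naive replicates 1 to 4. These counts, at most 0.670 CPM, were too few for the test, and a count of 0 allows up to 0.134 CPM in injury replicate 1 and 0.195 CPM in naive replicate 1 before TMM scaling (3 counts, counting error only). Its partner subunits had no such low values. Cpsf6 averaged 58.2 ± 5.77 CPM in injury and 56.5 ± 8.32 CPM in naive libraries, and Cpsf7 averaged 33.8 ± 3.42 and 31.2 ± 5.51 CPM. Their log2 fold changes were 0.05 ± 0.10 and 0.12 ± 0.12. The Nudt21 values are therefore not read as a difference between the groups, and the cause of the low counts was not tested.

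CstF binds the U- or GU-rich element downstream of the cleavage site. Its RNA-binding subunit is made by Cstf2 on the X chromosome and by the autosomal Cstf2t (chromosome 19, 31082837 to 31087069), an intronless gene inside Prkg1 on the opposite strand. Cstf2t had 46.7, 48.8, 52.9 and 49.9 CPM in injury replicates 1 to 4, against 35.4, 43.2, 41.0 and 43.6 CPM in naive replicates 1 to 4. Every injury library lay above every naive one, with a log2 fold change of 0.28 ± 0.10 that missed the threshold (edgeR adjusted p = 0.0575). It passed with the block (0.0337), with DESeq2 (0.0350) and without injury replicate 1 (0.0457). Those are 3 of 17 alternatives, and over all 17 the adjusted p ran up to 0.165. Cstf2 had 76.3, 79.4, 76.4 and 76.2 CPM in injury replicates 1 to 4, against 75.6, 82.4, 91.0 and 78.7 CPM in naive replicates 1 to 4, overlapping groups with a log2 fold change of -0.09 ± 0.08. The annotated end of Cstf2 lies within Nox1 on the opposite strand. In all, 10 members end within another annotated gene, 8 of them within a protein-coding one. Whether reads are shared between Cstf2 and Cstf2t was not tested, and whether the counting used strand is not stated in the sources used here.

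Cstf3 (chromosome 2, 104590523 to 104665429), the scaffold of CstF, was the other subunit whose groups did not overlap. It had 29.1, 29.8, 31.4 and 34.6 CPM in injury replicates 1 to 4, against 40.1, 35.7, 40.7 and 37.0 CPM in naive replicates 1 to 4. All injury libraries lay below all naive ones; the log2 fold change was -0.30 ± 0.10, with an edgeR adjusted p of 0.0592. It was called lower with DESeq2 (0.0298), with library totals (0.0218), among genes of mean level 5 CPM or more (0.0405) and without injury replicate 4 (0.0463). Those are 4 of 17 alternatives, and over all 17 the adjusted p ran up to 0.168. The gene's annotated end lies within Tcp11l1 on the opposite strand. Cstf1, the WD-repeat subunit, averaged 13.2 ± 2.52 CPM in injury and 13.4 ± 2.47 CPM in naive libraries.

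Of the 5 genes of CFIIm and of the factors that bridge cleavage to transcription, edgeR, DESeq2 and limma-voom called 0, and 2 (Clp1 and Rbbp6) had an unadjusted p under 0.05. The shares over all genes tested were 12.6%, 14.9% and 12.4% called, and 24.6% at the unadjusted p. With 5 genes, such counts do not set this group apart. Clp1, an RNA kinase in CFIIm, had 5.14, 3.73, 4.06 and 5.51 CPM in injury replicates 1 to 4, against 3.39, 3.14, 3.26 and 2.49 CPM in naive replicates 1 to 4. The groups did not overlap, but with few counts the log2 fold change of 0.59 ± 0.28 was not called (edgeR adjusted p = 0.195). Pcf11, its partner in termination, had 18.9, 23.2, 16.2 and 26.5 CPM in injury replicates 1 to 4, against 20.5, 20.7, 20.3 and 21.4 CPM in naive replicates 1 to 4. The injury libraries spread on both sides of the narrow naive range. Rbbp6, an activator of cleavage, averaged 104 ± 7.90 CPM in injury and 90.8 ± 8.59 CPM in naive libraries (log2 fold change 0.19 ± 0.08, edgeR adjusted p = 0.128, and 0.0269 with both libraries of number 1 left out). Rbbp6 was called in that 1 of 17 alternatives, and over all 17 the adjusted p ran up to 0.377. Ssu72, a phosphatase of the RNA polymerase II tail, stood at 0.15 ± 0.08 and the scaffold symplekin (Sympk) at 0.01 ± 0.15.

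The catalytic subunits of CCR4-NOT come as paralogues. Cnot8 (chromosome 11, 58104153 to 58118594), one of the CAF1-type deadenylases, had 48.7, 52.3, 51.7 and 45.3 CPM in injury replicates 1 to 4, against 63.4, 63.8, 52.1 and 60.6 CPM in naive replicates 1 to 4. The highest injury value, 52.3, lay just above the lowest naive value, 52.1 in naive replicate 3. It averaged 49.5 ± 3.23 CPM in injury and 60.0 ± 5.44 CPM in naive libraries, 1.21-fold lower after injury, a log2 fold change of -0.28 ± 0.09 with an edgeR adjusted p of 0.0489. That p lay close to the threshold: the call was kept with the block (0.0374), and was lost with limma-voom (0.0605), with both libraries of number 1 left out (0.125), and without injury replicate 1 (0.0728), 2 (0.0593) or 4 (0.147) or naive replicate 1 (0.110), 2 (0.141) or 4 (0.101).

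Cnot7, the other CAF1-type subunit, had 83.8, 80.3, 83.3 and 87.2 CPM in injury replicates 1 to 4, against 85.6, 78.9, 82.7 and 81.6 CPM in naive replicates 1 to 4. Its log2 fold change was 0.03 ± 0.07, with a 95% interval of 0.922 to 1.12 for the fold change. Cnot6, a CCR4-type deadenylase, had 48.0, 46.5, 43.9 and 46.0 CPM in injury replicates 1 to 4, against 37.5, 39.1, 38.6 and 40.8 CPM in naive replicates 1 to 4. The groups did not overlap, and the log2 fold change of 0.24 ± 0.09 was not called (edgeR adjusted p = 0.0890, and 0.0496 with DESeq2). DESeq2 was the 1 of 17 alternatives that called Cnot6, and over all 17 the adjusted p ran up to 0.195. Its paralogue Cnot6l averaged 25.3 ± 1.34 CPM in injury and 24.6 ± 3.80 CPM in naive libraries. The summed level of the 4 catalytic subunits was 205 ± 1.95 CPM in injury and 206 ± 8.12 CPM in naive libraries.

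Among the 6 other CCR4-NOT members edgeR, DESeq2 and limma-voom called 0, with 0 at an unadjusted p under 0.05. Over all genes tested, these fits called 12.6%, 14.9% and 12.4%, and 24.6% had such an unadjusted p. With 6 genes, a count of 0 does not set these members apart. Their log2 fold changes ran from -0.13 (Cnot2) to 0.10 (Cnot1). Without naive replicate 1 these were -0.25 for Cnot2 and 0.23 for Cnot1, and with both libraries of number 1 left out they were -0.32 and 0.25. Cnot1, the scaffold on which the complex is built, averaged 26.8 ± 1.09 CPM in injury and 25.0 ± 4.36 CPM in naive libraries. Cnot4, a ubiquitin ligase that binds the complex, had the highest level of these 6 and averaged 44.4 ± 1.58 CPM in injury and 45.2 ± 8.08 CPM in naive libraries. Cnot3, Cnot10 and Cnot11 stood between 0.03 and 0.07.

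The PAN2-PAN3 enzyme trims long tails, and PARN is a poly(A)-specific nuclease that also matures small RNAs. Parn had 16.6, 13.4, 18.9 and 18.3 CPM in injury replicates 1 to 4, against 23.2, 17.7, 22.1 and 23.1 CPM in naive replicates 1 to 4. The groups overlapped through naive replicate 2, and the log2 fold change of -0.36 ± 0.14 was not called (edgeR adjusted p = 0.108). Pan2, the nuclease, stood at 0.41 ± 0.26 and Pan3, its regulatory partner, at 0.11 ± 0.17. Tob1 and Tob2 encode adaptors that bring CCR4-NOT to poly(A) binding protein. Tob1 had 26.0, 15.7, 23.3 and 21.1 CPM in injury replicates 1 to 4, against 37.0, 24.2, 22.6 and 19.6 CPM in naive replicates 1 to 4, where naive replicate 1 was highest. Tob2 averaged 25.7 ± 4.24 CPM in injury and 25.8 ± 3.48 CPM in naive libraries.

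Because these libraries read transcript ends, transcript length has little part in a count, and levels can be set side by side with caution. Pabpc1 was the most abundant member, and its lowest library lay above the highest library of Pabpn1, the next in order. Below that, Rbbp6, Papola, Cnot7, Ssu72 and Cstf2 followed with mean levels over all 8 libraries of 97.3, 92.5, 82.9, 82.5 and 79.5 CPM, and neighbours in that order overlapped. Cpsf4 and Clp1 were lowest among the tested members, at 4.65 and 3.84 CPM. Within groups the coefficient of variation of a member had a median of 10.9% in injury and 13.0% in naive libraries. It was highest for Cpsf4 in injury, 27.4%, and for Tob1 in naive libraries, 29.7%.

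The balance between related genes was compared as the log2 ratio of CPM + 0.5 in each library, for 7 pairs, with an exact two-sided permutation test over the 70 ways to assign the libraries to the groups. The pairs were chosen with earlier results of these data known. This test leaves out the pairing of same-numbered libraries. The smallest p it allows is 0.0286, which is 0.200 after Benjamini-Hochberg adjustment when a single pair reaches it. A sign-flip test, which swaps the groups within same-numbered pairs, cannot go below 0.125, the value for both Cstf2t/Cstf2 and Cnot8/Cnot7. The Cstf2t/Cstf2 ratio was -0.70, -0.70, -0.53 and -0.61 in injury replicates 1 to 4, against -1.08, -0.92, -1.14 and -0.85 in naive replicates 1 to 4. All injury ratios lay above all naive ones, a difference of 0.37 ± 0.08 (SE; exact p = 0.0286, adjusted 0.200), a ratio 1.29-fold higher and higher in 4 of 4 same-numbered pairs. The Cnot8/Cnot7 ratio was -0.78, -0.61, -0.68 and -0.94 in injury replicates 1 to 4, against -0.43, -0.31, -0.66 and -0.43 in naive replicates 1 to 4. The groups met at injury replicates 2 and 3 and naive replicate 3, and the difference was -0.30 ± 0.10 (exact p = 0.0571, adjusted 0.200), lower in each of the 4 same-numbered pairs. The other 5 pairs, Cnot6l/Cnot6, Tob2/Tob1, Pabpc4/Pabpc1, Papolg/Papola and Cpsf7/Cpsf6, had differences between -0.19 and 0.23, exact p-values between 0.257 and 0.714 and overlapping groups. No pair passed the adjusted threshold.

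**Figure D4:**
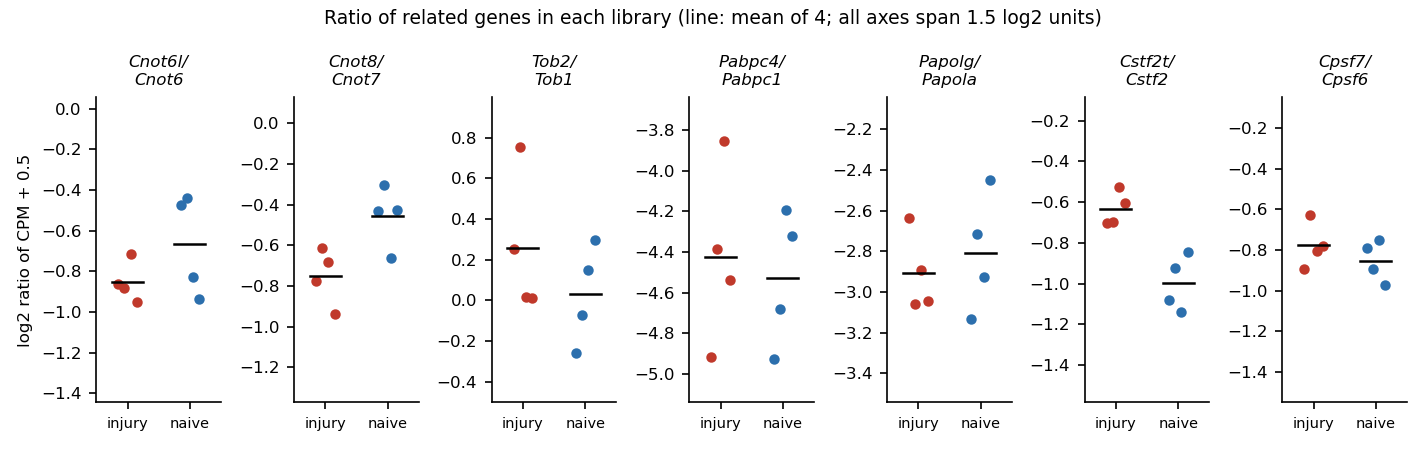
Log2 ratio of CPM + 0.5 (y axis) of 7 pairs of related genes in each of the 4 injury and 4 naive libraries, with a line for the group mean; each axis spans 1.5 log2 units but starts at its own value. The Cstf2t/Cstf2 ratio is the pair in which the groups do not overlap, between -0.70 and -0.53 in injury and between -1.14 and -0.85 in naive libraries.

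Other genes of poly(A) tail metabolism, message decay and transcript end formation were read from the same fit, in 7 lists of 83 genes. The lists too were chosen with earlier results of these data known. Of the 80 tested, 5 were higher and 0 lower after injury (edgeR), with a median log2 fold change of 0.04; the percentages over all genes were 8.12% higher and 4.47% lower. At an unadjusted p under 0.05, 5 of them were lower. Lower genes at the adjusted threshold were 1 with the block and 0 with DESeq2 and limma-voom. Of 11 poly(A) binding protein partners, 2 rose, where 8.12% of all genes tested were higher. With 11 genes, such a count does not set this list apart. Paip2, which displaces Pabpc1 from tails, had 229, 273, 274 and 275 CPM in injury replicates 1 to 4, against 210, 222, 217 and 226 CPM in naive replicates 1 to 4. Each of the 4 injury values exceeded every naive value (log2 fold change 0.27 ± 0.06, edgeR adjusted p = 0.00592), and the call held under all 17 alternatives (adjusted p 0.000356 to 0.0311). Gspt1, the release factor eRF3a, which binds the same protein, averaged 139 ± 12.4 CPM in injury and 114 ± 2.63 CPM in naive libraries (log2 fold change 0.29 ± 0.07, edgeR adjusted p = 0.00611), called under all 17 alternatives (0.000806 to 0.0373). Paip2 and Gspt1 end inside Slc23a1 and 2610020C07Rik on the opposite strand.

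Of 17 genes of transcription termination and end protection, 2 rose, and 8.12% of all genes tested were higher. Cdk12, a kinase of the RNA polymerase II tail, averaged 58.3 ± 4.93 CPM in injury and 44.6 ± 5.61 CPM in naive libraries (log2 fold change 0.39 ± 0.10, edgeR adjusted p = 0.00929). Without naive replicate 3 (0.0535) or 4 (0.0501) it was not called. Xrn2, the nuclear 5′ exonuclease that ends transcription after cleavage, had 44.2, 46.3, 50.2 and 57.0 CPM in injury replicates 1 to 4, against 36.8, 35.9, 38.9 and 43.0 CPM in naive replicates 1 to 4. The groups did not overlap (log2 fold change 0.35 ± 0.10, edgeR adjusted p = 0.0211), but it was not called without injury replicate 3 (0.0560) or 4 (0.118) or naive replicate 2 (0.0814) or 3 (0.0601). Of 9 tested non-canonical nucleotidyltransferases, Fam46a (now Tent5a), a cytoplasmic poly(A) polymerase, rose; 1 of 9 and 2 of 17 are both near the share over all genes. It had 6.24, 6.29, 6.37 and 6.42 CPM in injury replicates 1 to 4, against 4.52, 2.96, 3.04 and 3.13 CPM in naive replicates 1 to 4, without overlap (log2 fold change 0.90 ± 0.25, edgeR adjusted p = 0.0162; 0.0523 and 0.0565 without naive replicate 2 or 3).

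None of the other lists had a called gene: 7 tested further deadenylases and BTG proteins, 10 decapping and 5′ decay genes, 16 sequence-specific recruiters of deadenylases, and 10 genes of histone end processing and Integrator. At an unadjusted p under 0.05 they held 1, 2, 5 and 0 genes, where 24.6% of all genes tested had such a p, and DESeq2 and limma-voom called 0 in each. Median log2 fold changes of these 4 lists were 0.09, 0.06, 0.03 and -0.08. With the block the recruiter Tnrc6a, a scaffold of microRNA silencing, was the gene called lower.

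**Figure D5:**
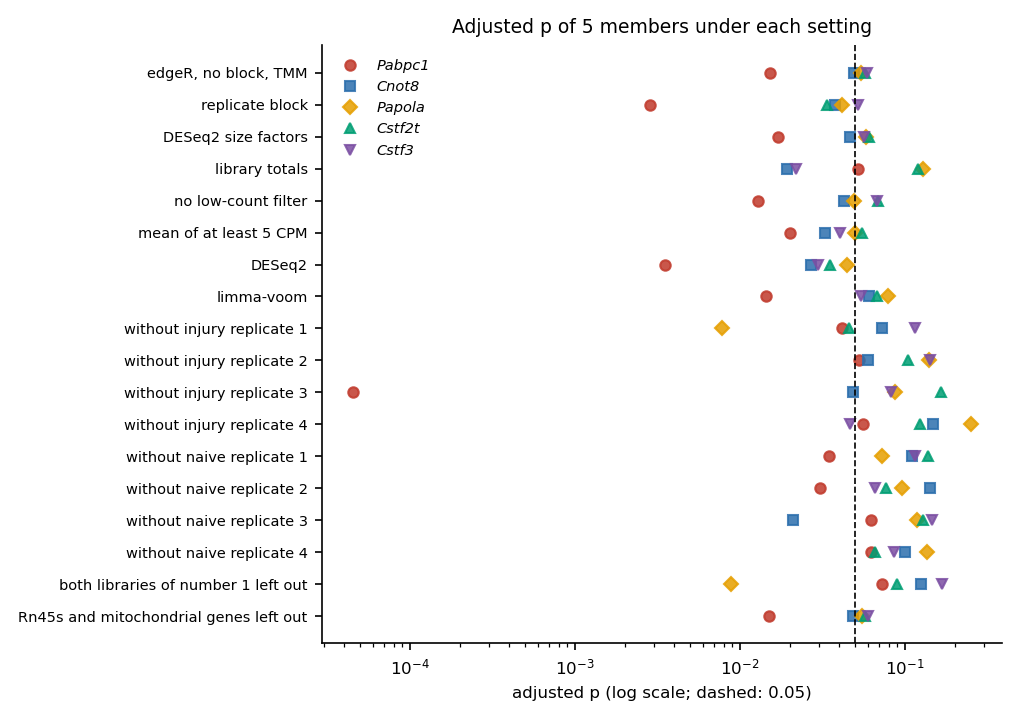
Adjusted p (x axis, log scale, dashed line at 0.05) of Pabpc1, Cnot8, Papola, Cstf2t and Cstf3 under the edgeR fit without a block and under each of 17 alternatives. The points of Pabpc1 run from 4.53e-05 to 0.0725 and those of Cnot8 from 0.0192 to 0.147, on both sides of the line.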

How the data were processed

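The authors deposited raw read counts, whole numbers for each gene symbol in each library. The submitters' processing notes name bcl2fastq 2.17, the aligner STAR, the counter HTSeq and the builds GRCm38 and mm10; other versions, the annotation and whether counting used strand are not stated there. Per the labels, RNA was extracted with RNeasy and turned into Lexogen QuantSeq REV libraries. Of 24060 rows, 27 whose symbol had become a date (0.146% to 0.158% of counts) were left out. Counts per gene do not resolve alternative poly(A) sites. Totals of 15422482 to 29368107 counts set the precision; reads have no molecular identifiers. Replicate pairs within a group differed by more than counting error (chi-square statistic over its degrees of freedom, 8.09 to 19.2, genes with at least 20 counts). Each repeat came from 2 mice, and how repeats were kept apart is not stated further, so p-values measure the spread between these libraries.

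The fit used edgeR 4.0.16 in R 4.3.3 with its quasi-likelihood F-test in robust form, TMM and filterByExpr over 13639 genes in 8 libraries. Each standard error was taken as |log2 fold change| over √F and is, like the 95% interval, approximate. Log2 fold changes are injury minus naive. The design text gives injured and opposite ganglia of the same mice in each repeat; taking the numbers as repeats, same-numbered libraries were treated as pairs in the block alternative, although their deviations correlated weakly (0.0352 to 0.0569, other pairings -0.0840 to 0.0378). Alternatives were this block, DESeq2 size factors, library totals, omitting the low-count filter, testing genes of mean level 5 CPM or more, DESeq2 1.42.0, limma-voom (limma 3.58.1), leaving out each library or both of number 1, and leaving out Rn45s; the table holds no mitochondrial symbols. Members, lists and pairs were chosen with earlier results of these data known. Genes described are every called member, from each role the member with the highest level and that with the smallest p, and up to 3 called genes of each other list. Cstf3, Cnot6, Pabpc4 and the remaining members were added after their values were seen. Of 83 further genes, 82 were found, some under older symbols through RefSeq synonyms. Transcript ends are those of GENCODE M21.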

Additional observations from a re-analysis of the deposited data

Results flagged for a closer look

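In 98 groups of 4 libraries, over the tested members, the further genes named and the pair ratios, 3 groups held a library far from the other 3; chance flags about 1 group in 20. Cstf2 stood at 79.4 CPM in injury replicate 2, against 76.2 to 76.4 CPM in the other injury libraries. Fam46a stood at 4.52 CPM in naive replicate 1, against 2.96 to 3.13 CPM in the other naive libraries, and Paip2 at 229 CPM in injury replicate 1, against 273 to 275 CPM in the other injury libraries. Without those libraries Fam46a and Paip2 stayed called.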

How the results depend on the processing

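Members called, 2 as reported, numbered 4 with the replicate block, 7 with DESeq2 and 1 with limma-voom. Higher members, 1 as reported, were 3 with the block, 0 with library totals, 2 with no low-count filter, 5 with DESeq2 and 2 with both libraries of number 1 left out. Lower members, 1 as reported, were 2 with library totals, among genes of mean level 5 CPM or more and with DESeq2, and 0 with limma-voom. With both libraries of number 1 left out, lower members were 1. Leaving out each library gave 0 to 3 members called, 0 to 3 higher and 0 to 1 lower, and 0 of the members were called without injury replicate 2 or naive replicate 4. Of the 37 tested members, 28 were called in no fit, and 7 that were not called as reported were called in at least 1 alternative; no called value changed sign. The block changed no other member's call. Of the further genes, 5 called as reported, leaving out each library gave 2 to 7 called, 2 to 7 higher and 0 to 1 lower; 1 was lower with the block, 2 with library totals and 1 among genes of mean level 5 CPM or more. Over all genes, library totals gave 1001 lower in place of 609; leaving out each library gave 1299 to 1859 called, 847 to 1156 higher and 452 to 703 lower. The pair ratios kept their direction with a pseudocount of 0.1; the block's sign-flip test cannot go below 0.125. The cause of these changes was not tested. Cpsf4, Clp1 and Pan2 had the fewest counts among the tested members, which limits the size of change that could be seen.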
